A study of Homo sapiens with 8 samples.

Results

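The nuclear export receptor CRM1, encoded by XPO1, and the RAN system that drives it were followed through 9 genes, namely XPO1, RAN, RCC1, RANGAP1, RANBP1, RANBP2, RANBP3, NUP214 and NUP88. They were chosen by name for their part in CRM1 export, by a rule that holds no expression value but was written with earlier results of these data known, and make up 9 of the 26364 gene symbols in the count file. All 9 had enough reads to enter the tests, which covered 14201 genes. RNA was sequenced from 2 stable clones of LN229, a human glioblastoma cell line. Both clones were selected with G418 after transfection of a pcDNA3.1 plasmid that encodes Survivin fused to eGFP. Clone Surv-GFP (D6) carries Survivin with an intact nuclear export sequence (NES), and its fusion protein lies mainly in the cytoplasm of untreated cells. Clone SurvNESmut-GFP (L2) carries the substitutions L96A and L98A in the NES, and its fusion protein lies mainly in the nucleus. Each clone was left untreated or was exposed to 50 µM temozolomide (TMZ), a methylating drug used against glioblastoma, for 48 h. At this dose the paper reports that the fusion protein of Surv-GFP accumulated in the nucleus as well. Clone and exposure together gave 4 groups of 2 libraries, lettered a and b. All p-values measure the spread between these letters, which may be technical. The study speaks of independent biological replicates, each run in technical duplicate, without saying which of these a letter stands for. Each construct is represented by 1 clone, so the NES mutation and other properties of the clone cannot be told apart.

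CRM1 binds cargo proteins with a leucine-rich NES inside the nucleus, together with RAN in its GTP-bound form, and carries them out through the nuclear pore. RCC1, the exchange factor on chromatin, loads RAN with GTP, and RANGAP1, the GTPase activator on the cytoplasmic side, triggers its hydrolysis with the help of RANBP1 and RANBP2, so that the export complex falls apart outside the nucleus. RANBP3 is a nuclear cofactor that helps CRM1 to bind cargo and RAN. NUP214 and NUP88 are partner nucleoporins on the cytoplasmic face of the pore, where CRM1 docks. Survivin, encoded by BIRC5, is itself a CRM1 cargo, which makes this machinery the step at which the constructs of both clones differ.

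The constructs differ in 2 codons of BIRC5. The reference sequence of codons 89 to 98 in transcript BIRC5-202 is shown because it holds the leucine codons that were changed in SurvNESmut-GFP. It lies in coding exon 3 at chr17:78216707-78216736 on the plus strand (GRCh38, GENCODE 29), and capitals mark codons 96 and 98.
BIRC5 codons 89 to 98: gtcaagaagcagtttgaagaaTTAaccCTT

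Depth was even across the libraries, with 15826923 to 18861603 reads counted on genes. The 9 members took 0.143% to 0.221% of these reads, and the lowest member count in any library was 651 for NUP88. Levels are given as CPM, the reads of a gene scaled to a common library size, after TMM, a correction for differences in library composition. BIRC5, which sums endogenous and plasmid-derived reads, stood at 1132 ± 27.9 CPM (SD, n = 2) in untreated Surv-GFP and 411 ± 5.22 in untreated SurvNESmut-GFP. It was at 1983 ± 64.6 upon TMZ in Surv-GFP and at 257 ± 6.89 in SurvNESmut-GFP. This sum of reads thus differed between the clones in level and in the direction of its change. The endogenous share of the sum was not tested, so its direction cannot be read as that of the endogenous gene. With primers for the endogenous transcript alone, the paper reports repression at the same exposure time in cells with the intact construct too, followed by recovery. CDKN1A, the p53 target p21, rose 11.5-fold in Surv-GFP (adjusted p = 1.02e-15, edgeR) and 3.89-fold in SurvNESmut-GFP (adjusted p = 4.23e-12). Of the glioma markers, VIM, NES, CD44, SOX2, OLIG2 and S100B were counted in every library, whereas GFAP had only 0 to 17 counts. Marker levels differed between the untreated clones. S100B was at 777 CPM in Surv-GFP and 40.6 in SurvNESmut-GFP, OLIG2 at 34.0 and 6.93, and SOX2 at 90.7 and 34.4. VIM was lower in SurvNESmut-GFP as well (3738 and 3003 CPM), whereas the genes NES (735 and 965) and CD44 (574 and 653) were higher. PTPRC, PECAM1, EPCAM and RBFOX3, markers of leukocytes, endothelium, epithelium and neurons, had at most 7 counts in any library.

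Compared per kilobase of exon, RANBP1 and RAN were the most abundant members in untreated Surv-GFP, at 110.5 and 102 CPM per kb, followed by XPO1 at 78.8 CPM per kb. RANGAP1 and RCC1 were lower, at 37.2 and 31.2 CPM per kb, and RANBP2 and RANBP3 stood at 22.7 and 17.4 CPM per kb. The partner nucleoporins NUP88 and NUP214 were alike in untreated Surv-GFP, at 12.3 and 12.2 CPM per kb. In untreated SurvNESmut-GFP, NUP88 was at 22.4 CPM per kb and NUP214 at 11.7. RAN was then the most abundant member, at 159.7 CPM per kb, and RANGAP1 was at 73.8. Exon lengths were taken from GENCODE 29, which need not be the annotation behind the counts.

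**Figure D1:**
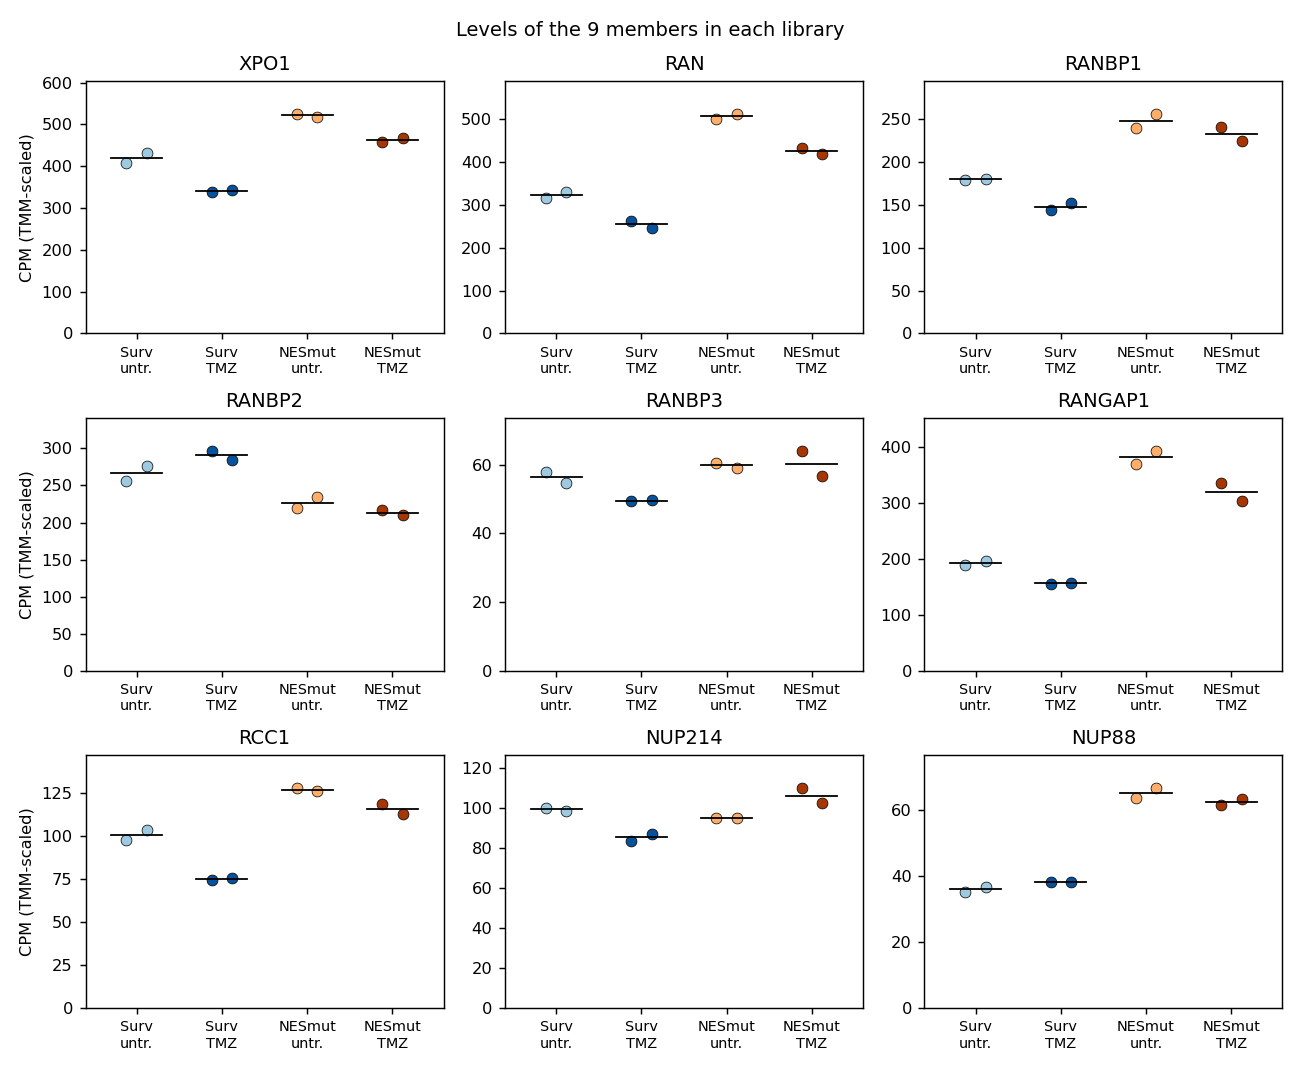
Level of each member in each of the 8 libraries, in TMM-scaled CPM on axes that start at 0. Points are the libraries a and b, lines are group means, Surv is Surv-GFP, NESmut is SurvNESmut-GFP and untr. is untreated. XPO1, RAN, RANBP1, RANGAP1, RCC1 and NUP88 sit higher in both SurvNESmut-GFP groups than in both Surv-GFP groups, and RANBP2 sits lower.

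The first comparison asked how TMZ changed transcripts of the export machinery in cells with free-shuttling Survivin. In Surv-GFP, 7 of the 9 members fell and 0 rose, while 28.9% of all tested genes were lower and 30.1% were higher. The decreases were moderate, with a median log2 fold change of -0.28 over the 9 members against 0 over all tested genes. At an unadjusted p of 0.05 in the same edgeR test, 1 member (RANBP2) was higher, and with DESeq2 0 were higher by adjusted p. Fewer cells expressing a gene and less RNA per cell cannot be told apart in such bulk samples. For TMZ effects within a clone and their comparison between clones, the paper reports few significant hits and therefore relaxed its threshold. The cause of this contrast with the shares called here was not tested.

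XPO1, the export receptor, was at 407 and 432 CPM in the untreated Surv-GFP libraries and at 338 and 343 CPM upon TMZ. Both exposed libraries lay below both unexposed ones, and XPO1 fell by 18.8% (log2 fold change -0.30, SE 0.05, adjusted p = 3.91e-05). RAN, the GTPase, went from 316 and 330.2 CPM to 262 and 246 CPM, a decrease of the same order (log2 fold change -0.35, SE 0.05, adjusted p = 1.45e-05).

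RCC1, which charges RAN with GTP, fell the most among the 9 members. It was at 97.6 and 104 CPM without TMZ and at 74.7 and 75.8 CPM with it, so that it fell by 25.2% (log2 fold change -0.42, SE 0.05, adjusted p = 3.51e-06). RANGAP1, which acts in the opposite direction on RAN, was at 189 and 196 CPM without TMZ and at 156 and 157 CPM with it (log2 fold change -0.30, SE 0.06, adjusted p = 0.000223). Transcripts of both ends of the RAN cycle were thus lower in the exposed cells. Their groups did not overlap, which with 2 libraries each also held for members that did not pass the test. RANBP1, the soluble coactivator of RANGAP1, was at 179.6 and 181 CPM before and at 144 and 152 CPM after exposure (log2 fold change -0.28, SE 0.05, adjusted p = 0.000291).

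Among the CRM1 cofactors and docking sites, NUP214 fell and NUP88 did not pass the test. NUP214 was at 99.9 and 98.3 CPM without TMZ and at 83.2 and 86.9 CPM with it (log2 fold change -0.22, SE 0.05, adjusted p = 0.00172). NUP88 was at 35.3 and 36.7 CPM and then at 38.3 and 38.2 CPM (log2 fold change 0.09, 95% interval -0.05 to 0.22, adjusted p = 0.252). RANBP3, the CRM1 cofactor, was at 58.0 and 54.6 CPM without TMZ and at 49.3 and 49.7 CPM with it (log2 fold change -0.19, SE 0.07, adjusted p = 0.0222). Its call rested on single libraries, as leaving out the untreated library a gave an adjusted p of 0.179 and leaving out the exposed library a gave 0.101. RANBP2, the large nucleoporin that holds SUMO-modified RANGAP1 at the pore, was at 257 and 276 CPM before and at 296 and 285 CPM after exposure. Its groups did not overlap, but its log2 fold change of 0.13 (SE 0.05) had an adjusted p of 0.0505, and it ranged from 0.0165 to 0.364 over the other settings tried.

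**Figure D2:**
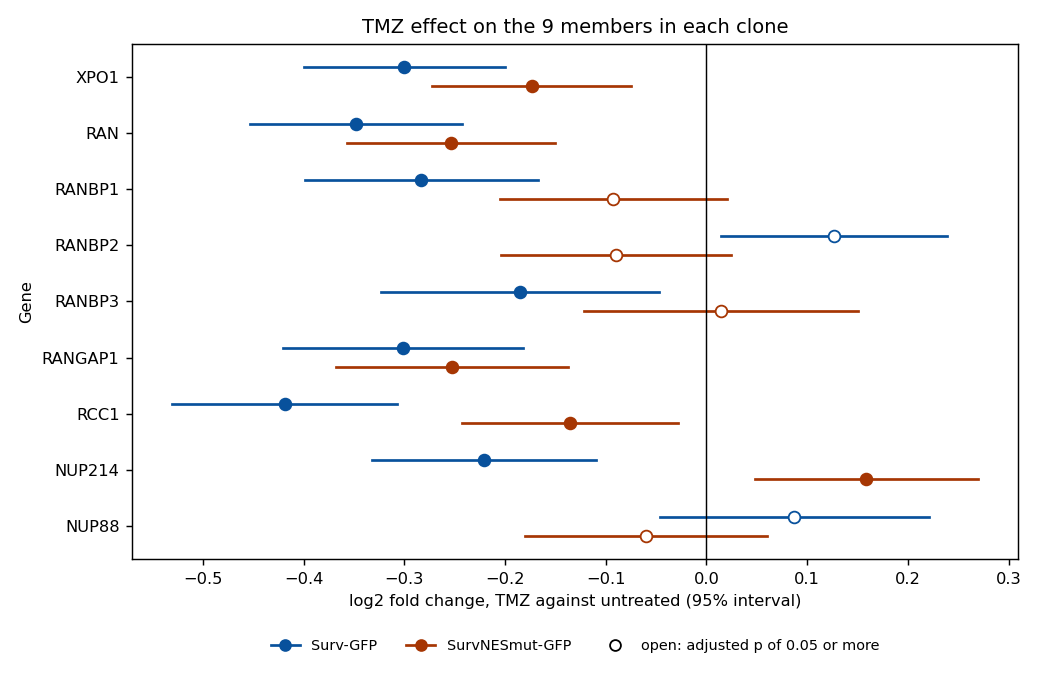
Log2 fold change upon TMZ of each member in Surv-GFP (blue) and SurvNESmut-GFP (brown), with its 95% interval. Filled points have an adjusted p under 0.05 in edgeR's test and open points do not. In Surv-GFP 7 members lie below 0, and NUP214 is the member with filled points on both sides of 0.

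The second comparison asked the same of cells with nuclear-trapped Survivin. In SurvNESmut-GFP, 4 of the 9 members fell upon TMZ and 1 rose, while 19.1% of all tested genes were lower and 18.6% higher. The median log2 fold change of the members was -0.09 and their median absolute log2 fold change 0.14, against 0.28 in Surv-GFP. Over all tested genes these medians were 0.197 and 0.318, so the members lay below all genes in both clones. XPO1 was at 525 and 518 CPM without TMZ and at 458 and 467 CPM with it, and fell by 11.3% (log2 fold change -0.17, SE 0.05, adjusted p = 0.00775). Without the untreated replicate a of this clone the adjusted p of XPO1 was 0.0529. RAN was at 501 and 511 CPM and then at 431 and 418 CPM (log2 fold change -0.25, SE 0.05, adjusted p = 0.000614). RANGAP1 was at 370.3 and 393 CPM and then at 336 and 304 CPM (log2 fold change -0.25, SE 0.05, adjusted p = 0.00155). Transcripts of the receptor, the GTPase and its activator were therefore lower upon TMZ in both clones. Their protein levels and the export activity were not measured in these libraries.

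RCC1 went from 128 and 126 CPM to 118 and 113 CPM in SurvNESmut-GFP, with no overlap between the groups (log2 fold change -0.14, SE 0.05, adjusted p = 0.0440). This call was weak, as the adjusted p exceeded 0.05 under 12 of the 17 other settings, and was 0.0618 with the replicate letter as a block and 0.126 with DESeq2. NUP214 was the member that rose, from 94.9 CPM in both untreated libraries to 109.7 and 102 CPM upon TMZ (log2 fold change 0.16, SE 0.05, adjusted p = 0.0242). Its call was lost under 5 of the 17 other settings, among them DESeq2 (adjusted p = 0.107) and the fit without the TMZ replicate a (adjusted p = 0.182).

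The other members did not pass the test in SurvNESmut-GFP. RANBP1 was at 240.2 and 256 CPM without TMZ and at 241 and 224 CPM with it, so that the groups overlapped (log2 fold change -0.09, 95% interval -0.21 to 0.02). RANBP2 was at 219 and 235 CPM and then at 216 and 210.2 CPM (log2 fold change -0.09, 95% interval -0.20 to 0.02). RANBP3 was at 60.4 and 59.1 CPM and then at 63.9 and 56.6 CPM, which also overlapped (log2 fold change 0.01, 95% interval -0.12 to 0.15). NUP88 was at 63.7 and 66.6 CPM and then at 61.6 and 63.4 CPM (log2 fold change -0.06, 95% interval -0.18 to 0.06).

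Whether the TMZ effects differ between the clones was tested directly, as the effect in SurvNESmut-GFP minus that in Surv-GFP. For 2 members the difference was positive and for 1 it was negative, while 16.6% of all tested genes had a positive and 20.2% a negative difference. NUP214 showed the largest difference, 0.38 on the log2 scale (SE 0.07, adjusted p = 0.000753), as it was lower upon TMZ in Surv-GFP and higher in SurvNESmut-GFP. RCC1 differed by 0.28 (SE 0.07, adjusted p = 0.00595), since its decrease was larger in Surv-GFP. Both held in all 16 other settings. RANBP2 differed by -0.22 (SE 0.08, adjusted p = 0.0335), with levels that were higher upon TMZ in both Surv-GFP libraries and lower in both SurvNESmut-GFP libraries. This call of RANBP2 was lost under 7 other settings, with an adjusted p of 0.0762 in DESeq2, 0.113 with library size alone as the scaling and 0.159 without the untreated Surv-GFP replicate a.

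For the other members, namely XPO1, RAN, RANGAP1, RANBP1, RANBP3 and NUP88, no difference between the TMZ effects passed the test. The difference was 0.13 for XPO1 (95% interval -0.01 to 0.27, adjusted p = 0.150), 0.09 for RAN (95% interval -0.05 to 0.24) and 0.05 for RANGAP1 (95% interval -0.12 to 0.21). The difference was 0.19 for RANBP1 (adjusted p = 0.0606), 0.20 for RANBP3 (adjusted p = 0.0995) and -0.15 for NUP88 (adjusted p = 0.193). RANBP1 passed the threshold under 7 of the 16 other settings, RANBP3 under 3 and XPO1 under 2. The scaling matters here, because library size alone moved the difference of every member upward by 0.06 and a filter of 1 CPM in 2 libraries by 0.05. Under either setting XPO1, RANBP1 and RANBP3 passed the threshold as well, so that 5 members had a positive difference and 0 a negative one. Over all tested genes the positive and negative shares moved as well, to 20.5% and 16.8% with library size alone and to 20.8% and 18.5% with the filter.

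The stretch upstream of a RefSeq start is shown for the members whose TMZ effect differed between the clones, each up to the first base of the gene's annotated exons (GRCh38.p14). RCC1 and NUP214 have a further RefSeq start, and the first listed start of each was taken. Capitals mark the letters GCGGGAA, an E2F-type motif, and CCAAT, the CCAAT box, read on either strand. RCC1 lies at chr1:28505793-28505942 on the plus strand, NUP214 at chr9:131125336-131125560 on the plus strand and RANBP2 at chr2:108719232-108719480 on the plus strand.
RCC1: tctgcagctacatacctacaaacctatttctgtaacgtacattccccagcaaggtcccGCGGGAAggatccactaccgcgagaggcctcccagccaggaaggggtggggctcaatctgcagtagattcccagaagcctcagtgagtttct
NUP214: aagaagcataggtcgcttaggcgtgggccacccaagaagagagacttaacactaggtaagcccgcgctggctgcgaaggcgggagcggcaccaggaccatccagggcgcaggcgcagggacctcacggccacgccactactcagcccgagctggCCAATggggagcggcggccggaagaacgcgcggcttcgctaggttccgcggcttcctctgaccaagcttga
RANBP2: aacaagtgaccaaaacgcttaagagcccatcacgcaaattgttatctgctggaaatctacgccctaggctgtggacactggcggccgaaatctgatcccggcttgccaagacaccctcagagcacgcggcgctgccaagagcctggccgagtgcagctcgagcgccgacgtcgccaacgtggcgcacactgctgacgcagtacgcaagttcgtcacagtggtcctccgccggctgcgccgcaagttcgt

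Motifs were searched in the 250 bases before each of 12 RefSeq starts, which cover 8 of the members, all but RANBP1. The E2F-type letters GCGGGAA stood before 1 start of RCC1, 192 bases from it, and before RANBP3, 187 bases from its start. They were found before 5.52% of 34788 distinct RefSeq windows. Such shares count single windows, whereas XPO1, RANGAP1, RCC1 and NUP214 have more than 1 start each. A CCAAT box stood before XPO1, NUP214 and NUP88, with 3 copies at NUP88, and before 32% (11138) of all starts. The E-box CACGTG stood before RAN, 102 bases from the start, and before further starts of XPO1 and RCC1, against 6.31% of all starts. The cell cycle homology letters TTTGAA stood before 1 start of RANGAP1 (13.3% of all starts) and TTTAAA before 1 start of RCC1 (11.3%). None of these letters stood before RANBP2. Such matches are descriptions of the reference sequence and name no bound factor.

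The clones were then compared with each other, which asks how transcripts of the machinery stood in the cells without and with exposure. Without TMZ, 6 members were higher in SurvNESmut-GFP and 1 was lower, while 34.7% of all tested genes were higher and 29.4% lower. The median log2 difference of the members was 0.34, against 0.03 over all tested genes. RANGAP1 differed most, with 370.3 and 393 CPM in SurvNESmut-GFP against 189 and 196 CPM in Surv-GFP, which is 1.98-fold (log2 fold change 0.99, SE 0.06, adjusted p = 1.57e-10). NUP88 was 1.81-fold higher, with 63.7 and 66.6 CPM against 35.3 and 36.7 CPM (adjusted p = 2.24e-09). RAN was 1.57-fold higher (adjusted p = 6.86e-09) and RANBP1 1.38-fold higher (adjusted p = 1.13e-06).

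XPO1 was 1.24-fold higher in untreated SurvNESmut-GFP (95% interval of the log2 fold change 0.22 to 0.41, adjusted p = 1.78e-05), and RCC1 1.26-fold higher (adjusted p = 2.03e-05). RANBP2 was the member that was lower in the NES-mutated clone, with 219 and 235 CPM against 257 and 276 CPM (log2 fold change -0.23, SE 0.05, adjusted p = 0.00122). RANBP3 (log2 fold change 0.09, 95% interval -0.05 to 0.22) and NUP214 (log2 fold change -0.06, 95% interval -0.17 to 0.05) did not pass the test. All of these calls and failures to pass held under the 17 other settings.

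Upon TMZ the difference between the clones was larger in size for 8 of the 9 members, all but NUP88, although the change in this difference passed its test for RCC1, NUP214 and RANBP2 only. Over all tested genes the median absolute log2 difference between the clones was larger upon TMZ as well, at 0.42 against 0.355 without it. In exposed cells 8 members were higher in SurvNESmut-GFP and 1 was lower, while 34.5% of all tested genes were higher and 34.7% lower. The median log2 difference of the members was 0.62, against -0.0005 over all tested genes. RANGAP1 was 2.05-fold higher (adjusted p = 8.47e-11), RAN 1.67-fold (adjusted p = 1.22e-09), NUP88 1.64-fold (adjusted p = 2.14e-08), RANBP1 1.57-fold (adjusted p = 1.77e-08) and RCC1 1.54-fold (adjusted p = 2.15e-08). XPO1 was 1.36-fold higher, with 458 and 467 CPM against 338 and 343 CPM (adjusted p = 3.53e-07). NUP214 was higher here, at 109.7 and 102 CPM against 83.2 and 86.9 CPM (log2 fold change 0.32, SE 0.05, adjusted p = 5.06e-05). RANBP3 was higher by 0.29 (adjusted p = 0.000996), which became an adjusted p of 0.0566 without the SurvNESmut-GFP TMZ replicate a. RANBP2 stayed on the other side, at 216 and 210.2 CPM against 296 and 285 CPM (log2 fold change -0.45, SE 0.05, adjusted p = 1.43e-06). The order of XPO1 levels over the 4 groups was untreated SurvNESmut-GFP, exposed SurvNESmut-GFP, untreated Surv-GFP and exposed Surv-GFP, with no overlap between neighbours, although the middle pair was not tested.

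**Figure D3:**
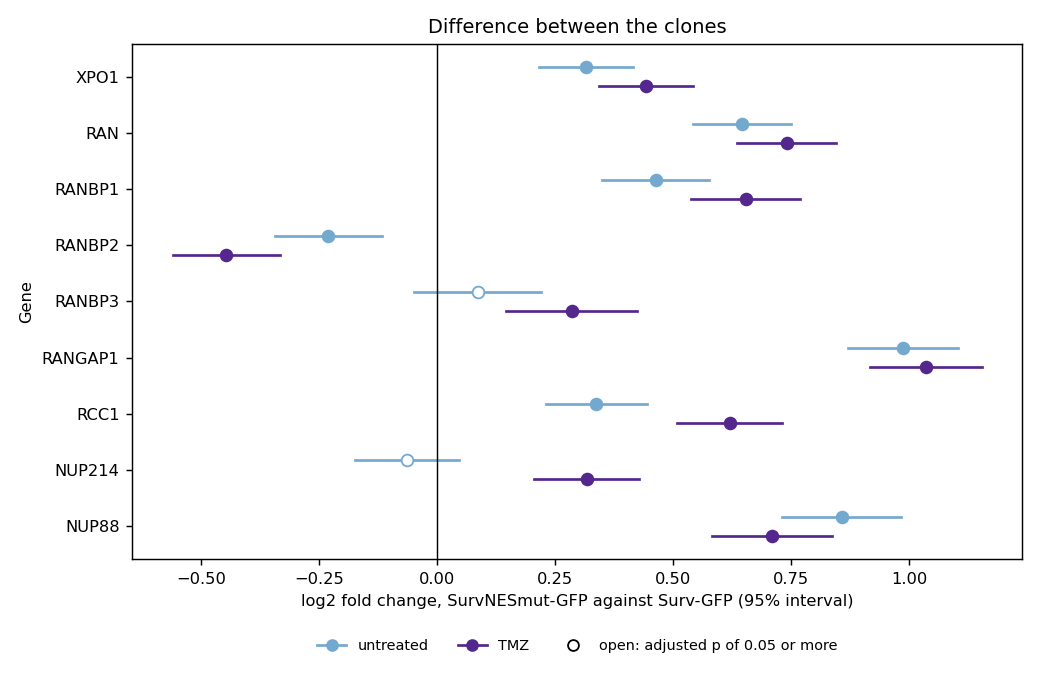
Log2 fold change of each member in SurvNESmut-GFP against Surv-GFP, with its 95% interval, in untreated cells (light blue) and in TMZ-exposed cells (violet). Filled points have an adjusted p under 0.05 and open points do not. RANGAP1 lies farthest to the right at 0.99 and 1.04, and RANBP2 is the member below 0 with filled points at -0.23 and -0.45.

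Ratios of 2 members within a library do not depend on the scaling between libraries and show where the parts of the system moved apart. The log2 ratio of RCC1 to RANGAP1 counts, exchange factor to GTPase activator, was -0.95 and -0.92 in untreated Surv-GFP and -1.53 and -1.64 in untreated SurvNESmut-GFP. Upon TMZ it was -1.06 and -1.05 in Surv-GFP and -1.505 and -1.43 in SurvNESmut-GFP, so the clones did not overlap in either state. The log2 ratio of NUP214 to NUP88 was 1.503 and 1.42 in untreated Surv-GFP and fell to 1.12 and 1.19 upon TMZ. In SurvNESmut-GFP it was 0.57 and 0.51 without TMZ and 0.83 and 0.69 with it, thus lower throughout and moving the other way. The log2 ratio of XPO1 to RAN ranged from 0.36 to 0.48 in Surv-GFP and from 0.02 to 0.16 in SurvNESmut-GFP. The log2 ratio of RANBP1 to RAN had a mean of -0.84 in untreated Surv-GFP, -0.78 in exposed Surv-GFP, -1.03 in untreated SurvNESmut-GFP and -0.87 in exposed SurvNESmut-GFP. No permutation test was run on these ratios, as 2 libraries against 2 cannot pass a threshold of 0.05.

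**Figure D4:**
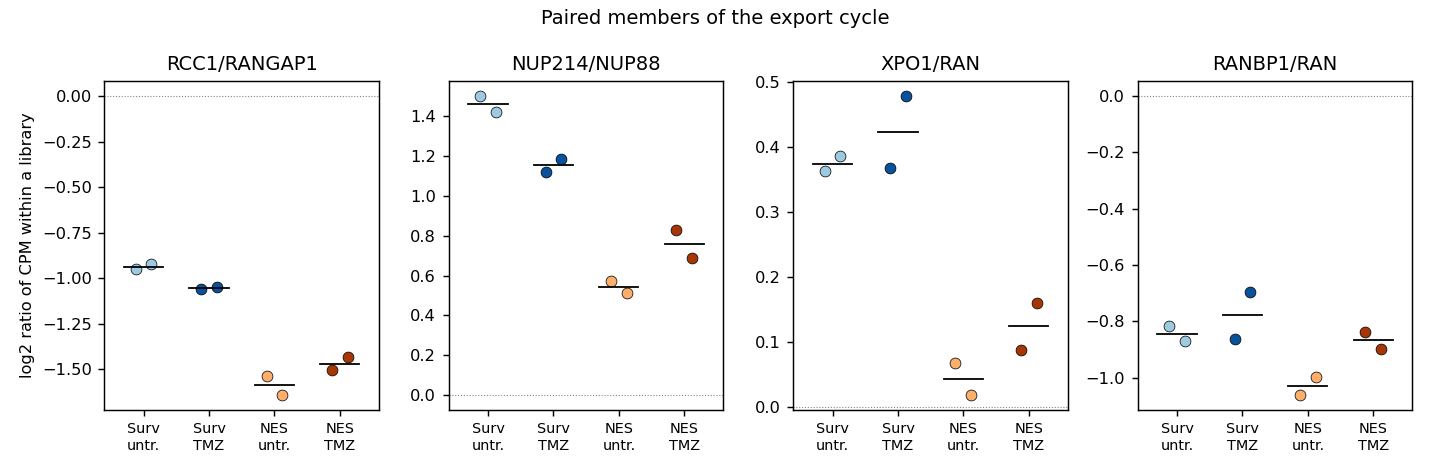
Log2 ratio of the CPM of 2 members within each library, with libraries a and b as points and group means as lines. Surv is Surv-GFP, NES is SurvNESmut-GFP, untr. is untreated, and the vertical axes differ between panels and need not start at 0. RCC1/RANGAP1 and NUP214/NUP88 are lower in SurvNESmut-GFP than in Surv-GFP in all libraries.

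Seen across the 8 libraries, RCC1 was the member whose log2 CPM was most like that of XPO1 (Pearson r = 0.99), followed by RAN (0.98), RANBP1 (0.96) and RANGAP1 (0.94). RANBP3 (0.84), NUP88 (0.81) and NUP214 (0.62) were less alike, and RANBP2 ran against XPO1 (r = -0.84). Over all tested genes the highest values belonged to PLK4, PAGR1, LMNB2, HDAC1 and FAM208A, with r from 0.9956 to 0.9986, and the lowest to PHYKPL, LRRC75A-AS1 and DYNC1LI2, with r from -0.9967 to -0.9933. The libraries fall into 4 groups of 2 and share their clones, so these values describe mainly the order of 4 group levels.

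Proliferation markers moved in the direction of most but not all members. All 15 of 15 markers were lower upon TMZ in Surv-GFP (median log2 fold change -0.96) and 14 of 15 in SurvNESmut-GFP (median -0.54), and 14 of 15 had a positive difference between these effects. The summed level of the 15 markers was 4077 to 4309.8 CPM in untreated and 2197 to 2245 CPM in exposed Surv-GFP, and 4939.6 to 5025 and 3399.7 to 3479 CPM in SurvNESmut-GFP. Between the clones, 11 markers were higher and 1 lower in untreated SurvNESmut-GFP, and 15 were higher upon TMZ. PLK1, a mitotic kinase, was at -2.53 in Surv-GFP and at -1.98 in SurvNESmut-GFP as log2 fold change upon TMZ. RANBP2 and NUP88 did not pass the test in Surv-GFP, NUP214 rose in SurvNESmut-GFP, and RANBP2 was lower in SurvNESmut-GFP, against the direction of the markers. The part of proliferation in the members' changes was not tested.

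The remaining transport machinery was counted in the same way. Of 74 further symbols in 10 lists of exportins, importins, RAN regulators, CRM1 adaptors and nucleoporins, 66 were tested, and 18 rose (27.3%) and 22 fell (33.3%) upon TMZ in Surv-GFP, with a median log2 fold change of 0.02, beside 30.1% and 28.9% of all tested genes. In SurvNESmut-GFP 11 rose (16.7%) and 12 fell (18.2%), beside 18.6% and 19.1%. For 15 (22.7%) the difference between the effects was positive and for 12 (18.2%) negative, beside 16.6% and 20.2%. In the clone comparison 33 were higher (50.0%) and 9 lower (13.6%) in untreated SurvNESmut-GFP, beside 34.7% and 29.4%. In exposed cells 37 were higher (56.1%) and 15 lower (22.7%), beside 34.5% and 34.7%. The median log2 differences between the clones were 0.13 and 0.15, and the shares of the lists were not tested against those of all genes.

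Among the 6 other exportins tested, XPOT, the tRNA exporter, was at 219 and 234 CPM in untreated Surv-GFP and at 579 and 564 CPM upon TMZ, and rose 2.53-fold (adjusted p = 7.47e-12). In SurvNESmut-GFP it rose 1.86-fold (adjusted p = 4.19e-09), so this RAN-dependent exporter moved opposite to XPO1 in both clones. CSE1L, which returns importin alpha to the cytoplasm, fell by 21.5% in Surv-GFP (adjusted p = 1.71e-05). Importin alpha genes were divided in Surv-GFP, with 2 of 6 higher and 2 lower. KPNA2 fell by 55.3% in Surv-GFP (adjusted p = 1.31e-11) and by 45.5% in SurvNESmut-GFP (adjusted p = 1.97e-09). KPNA4 rose 1.72-fold in Surv-GFP (adjusted p = 1.03e-09) and 1.14-fold in SurvNESmut-GFP (adjusted p = 0.00603).

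The counts of the single lists in Surv-GFP stand beside 30.1% of all tested genes higher and 28.9% lower, and most of the lists are too short to be read against these shares. Of the 12 importin beta genes, 3 rose and 2 fell in Surv-GFP, and IPO8 fell by 33.5% (adjusted p = 9.53e-08). Among 7 CRM1 adaptors and partners, 1 rose and 3 fell there. NMD3, the CRM1 adaptor for the large ribosomal subunit, was the one that rose, 1.40-fold (adjusted p = 8e-06). Of the 5 further RAN regulators and SUMO partners of RANGAP1, 2 rose and 1 fell in Surv-GFP. Of 9 genes of the Y complex, the scaffold of the pore, 5 fell and 1 rose, and NUP133 fell by 30.9% (adjusted p = 4.2e-07). Of 8 nucleoporins on the cytoplasmic side 3 rose and 2 fell, of 7 in the inner ring and central channel 1 rose and 2 fell, 2 of 3 in the basket fell, and of 3 in the membrane 2 rose and 1 fell.

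The clone differences of the members were also set beside those of their neighbours on the chromosome, a comparison chosen after the values were seen. For each member the 10 nearest tested genes on either side were taken from the RefSeq gene order, which placed 13043 of the 14201 tested genes. NUP88 on chromosome 17 had 17 of 20 neighbours higher in untreated SurvNESmut-GFP, where 34.7% of all tested genes were higher, with a median log2 fold change of 0.50 beside its own 0.86. RAN on chromosome 12 had 14 higher and 3 lower (median 0.29 beside its own 0.65), and XPO1 on chromosome 2 had 11 higher and 1 lower (median 0.29 beside its own 0.32). RANBP1 on chromosome 22 had 11 higher and 2 lower (median 0.24 beside its own 0.46). RANBP2 lay among genes of which 12 of 20 were lower and 3 higher (median -0.27 beside its own -0.23), where 29.4% of all tested genes were lower. RANGAP1, also on chromosome 22, and RCC1 on chromosome 1 were at 0.99 and 0.34, while 6 and 4 of their neighbours were higher and 4 and 6 lower, with medians of 0.02 and -0.15. The neighbours of RCC1 called lower include small nucleolar RNAs and a host gene of such RNAs, which may not be independent of each other. Neighbours of RANBP3 and NUP214 had medians of 0.10 and 0.05, beside their own 0.09 and -0.06. In exposed cells XPO1 was at 0.44 beside a neighbour median of 0.16, and RANBP2 at -0.45 beside -0.17. NUP88 was then at 0.71 beside 0.53 and RAN at 0.74 beside 0.37.

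**Figure D5:**
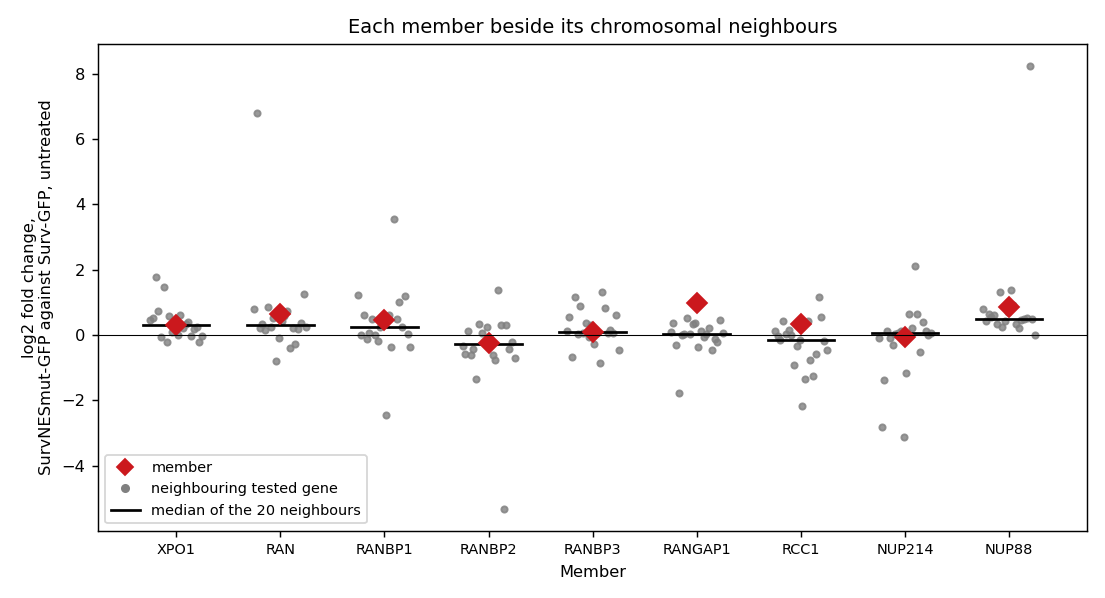
Log2 fold change of untreated SurvNESmut-GFP against untreated Surv-GFP for each member (red diamonds) and for the 10 nearest tested genes on either side (grey points, spread sideways for display), with the median of the 20 neighbours as a line. The median is 0.50 at NUP88 and 0.02 at RANGAP1, whose own values are 0.86 and 0.99.

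Reads of some members may be shared with other genes. Exons of RCC1 overlap SNHG3 on the same strand over 242 bases, those of NUP88 overlap RPAIN and RABEP1 on the opposite strand over 520.0 and 468 bases, and those of RANBP1 overlap TRMT2A on the opposite strand over 393 bases (GENCODE 29). Exons of XPO1 overlap AC016727.1 over 494 bases and those of NUP214 overlap AL157938.2 and AL157938.3 over 667 and 529 bases, all on the opposite strand. Strandedness was not given in the sources used here for the counts, and the levels of these members are uncertain to that extent. RANBP2 has near-identical copies of the RGPD family, whose 7 symbols together held 0.567% to 1.23% as many counts as RANBP2, with 5 of them at 0 in every library, and how reads were divided between them is unknown.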

How the data were processed

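Illumina sequencing of total RNA gave the 8 libraries. Groups were taken from the sample labels, and columns of the count file were matched by the code in their names. The authors deposited raw read counts, whole numbers per gene symbol. STAR 2.5.0b, Cufflinks 2.2.1 and edgeR are named in the submitters' processing notes, without their roles. Counter, annotation and build were not given in the sources used here for this table. The 2 rows that name no gene held 11.2% to 14.3% (no feature) and 1.19% to 1.28% (ambiguous) of all reads in the count file, these rows included, and were left out. The authors' 5 comparison tables hold fold changes, average log2 CPM, F, p and FDR and were not used.

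The analysis used edgeR 4.0.16 in R 4.3.3 (with limma 3.58.1). All 8 libraries entered a single model of 4 group means, with TMM scaling, filterByExpr by group as the low-count filter, and the legacy quasi-likelihood F test. P-values were adjusted by Benjamini-Hochberg over 14201 genes at a threshold of 0.05. Calls were counted per direction beside the share of all tested genes called. The SE is the log2 fold change divided by the root of F, and the common biological coefficient of variation was 4.09%. On simulated data with 200 changed genes the fit was tested before use. The simulated effects were larger than any TMZ effect of a member. That check therefore covers neither effects as small as these nor data in which a large share of genes changes. Alternatives were DESeq2 1.42.0, scaling by its size factors or by library size, no filter or 1 CPM in 2 libraries, edgeR 4's method, a robust prior, the replicate letter as block, a fit of the 4 libraries of a comparison, and omission of each library in turn.

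The members, the lists and the tests were chosen with earlier results of these data known. All members were named in every comparison. From each list at most the 2 strongest rises and the 2 strongest falls past the threshold in each of the first 3 comparisons could be named, together with BIRC5, CDKN1A and the genes most and least like XPO1. Promoter and neighbour data are from RefSeq tables, and exons and transcripts from GENCODE 29.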

Additional observations from a re-analysis of the deposited data

Results flagged for a closer look

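The TMZ effects of 3 members differed between the clones by the test of the difference itself, 2 of 9 upward and 1 downward, while 16.6% of all tested genes differed upward and 20.2% downward, so the count is near the share of all genes. NUP214 differed by 0.38 on the log2 scale (SurvNESmut-GFP minus Surv-GFP, adjusted p = 0.000753), with log2 fold changes upon TMZ of -0.22 (Surv-GFP) and 0.16 (SurvNESmut-GFP). RCC1 differed by 0.28 (adjusted p = 0.00595), with -0.42 and -0.14. RANBP2 differed by -0.22 (adjusted p = 0.0335), with 0.13 and -0.09, of which neither passed the test on its own.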

How the results depend on the processing

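Of the members' log2 fold changes in the 5 comparisons, 707 values under an alternative kept their direction and side of the threshold, 18 passed it in addition, 28 no longer passed it and 3 changed sign. The sign changed for RANBP3 upon TMZ in SurvNESmut-GFP when the untreated library b (-0.0035) or the exposed library a (-0.075) was left out, with a range of -0.075 to 0.10 over single libraries. It also changed for RANGAP1 in the difference between TMZ effects without the exposed SurvNESmut-GFP library a (-0.028), with a range of -0.028 to 0.12, and neither gene passed these tests under any setting. The number of members higher upon TMZ in Surv-GFP was 1 with edgeR 4's method, with a robust prior and with only the 4 libraries compared, and ranged from 0 to 1 over single libraries left out. In SurvNESmut-GFP it was 0 with DESeq2 and with only the 4 libraries compared and ranged from 0 to 1 over single libraries left out, and the number of members lower ranged from 2 to 4. For the difference between TMZ effects, 5 members were positive and 0 negative with library size alone and with the filter of 1 CPM in 2 libraries, and 0 were negative with DESeq2. Over single libraries left out, 2 to 4 were positive and 0 to 1 negative. The shares of all tested genes called moved as well. Upon TMZ in SurvNESmut-GFP 13.1% were higher and 14.5% lower with DESeq2, against 18.6% and 19.1% in the main fit. With only the 4 libraries compared, 17.1% were higher in SurvNESmut-GFP, and in Surv-GFP 32.4% against 30.1% in the main fit. For the difference between TMZ effects, 12.6% were positive and 14.5% negative with DESeq2, against 16.6% and 20.2%. The cause of these changes was not tested. With the replicate block, 3 members were lower upon TMZ in SurvNESmut-GFP, as RCC1 had an adjusted p of 0.0618, and no other call of a member changed. The deviations of same-lettered libraries correlated by -0.07 to 0.08 between groups over all tested genes. Such values cannot show whether libraries with the same letter were prepared together. Where a left-out library leaves a group with 1 library, that library is assumed to vary like the others. The smallest log2 fold change of a member that was called at this depth and with 2 libraries a group was -0.14, for RCC1 upon TMZ in SurvNESmut-GFP.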
